A study of Arabidopsis thaliana with 16 samples.

Results

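The ethanol by duration interaction asks, for each gene, whether seedlings kept in ethanol vapour for 3 d departed from their controls in another way than seedlings kept in it for 1 d. It is the response at 3 d (EtOH_3d minus moc_3d) minus the response at 1 d (EtOH_1d minus moc_1d), on the log2 scale. The same number is the change with duration under ethanol (EtOH_3d minus EtOH_1d) minus the change with duration in the controls (moc_3d minus moc_1d). It was computed from 14 of the 16 columns of read counts. These were moc_1d replicates 2, 3 and 4, EtOH_1d replicates 1 to 4, moc_3d replicates 1, 2 and 4, and EtOH_3d replicates 1 to 4. The columns of moc_1d replicate 1 and moc_3d replicate 3 hold the same count for all 27416 genes, a total of 6209714 reads each, so at least 1 of them does not hold its own sample, and both were left out.

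Every library came from whole seedlings of Arabidopsis thaliana on agar, and ethanol was given as a gas. Plants of the 1 d groups were 13 d old when exposure began and plants of the 3 d groups were 11 d old, so duration and age at the start cannot be told apart. The control label, moc, is not spelled out, the labels name no strain, mutation or transgene in any group, and they give no cold step, although the series title speaks of freezing stress. Messenger RNA was read with Lasy-Seq, a 3′ RNA-seq method in which each read comes from near the poly(A) end of a transcript. Whether replicates came from different plates is not stated, and a p-value therefore speaks only of the spread among the libraries of a group, which may be technical. The libraries held 3695511 to 15943927 counted reads. Every one of the 12 root and 13 leaf marker genes was detected in every library. Levels are given as CPM (a gene's share of the library's counts, scaled to a common library size). The summed root markers were at 1503 to 1725 CPM in moc_1d and 1463 to 1791 in EtOH_1d. At 3 d they were at 1536 to 1577 CPM in moc_3d and 1444 to 1534 in EtOH_3d, without overlap. Summed leaf markers overlapped there, at 85556 to 89303 CPM in moc_3d and 83145 to 89798 in EtOH_3d. The part of root share in the values of single genes was not tested. In such bulk samples, fewer cells of a type and less RNA per cell cannot be told apart.

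Plants oxidise ethanol through alcohol dehydrogenase and aldehyde dehydrogenase to acetate, which can enter central metabolism. Carbon shortage, as in extended darkness, is known to switch on a set of starvation genes that includes the DIN (dark inducible) genes, and shortage of sulfate switches on another set that includes the LSU (response to low sulfur) genes and sulfate transporters. Ferredoxin and ferredoxin-NADP reductase of the root type carry electrons in plastids without photosynthesis, where they serve among others the reduction of nitrite and sulfite. Each of these groups appears below. An interaction by itself does not say which treatment differs, because any of the 4 groups can produce it.

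The response to ethanol differed between 3 d and 1 d in 8 genes, 5 of them more positive and 3 more negative at 3 d. The more positive were DIN10, a gene of the raffinose synthase family, the monooxygenase gene MO1, the glycine-rich protein gene AT2G05540, AT1G22890, which codes for an uncharacterised protein, and the chloroplast-encoded locus ATCG00740. The more negative were the galactinol synthase gene GOLS2, the sulfur limitation gene LSU1 and RFNR2, a root-type ferredoxin-NADP reductase. These 8 are 0.0434% of the 18419 genes tested, at an adjusted p under 0.05 in edgeR's quasi-likelihood test with Benjamini-Hochberg adjustment. The background is 0.0271% for the positive and 0.0163% for the negative direction. Without adjustment, 1025 genes had a p under 0.05, where 921 would be reached by an even spread of p-values. Their signs were even, with 513 positive and 512 negative. Over all tested genes the median interaction was -0.0036 and the median size was 0.15 on the log2 scale.

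**Figure D1:**
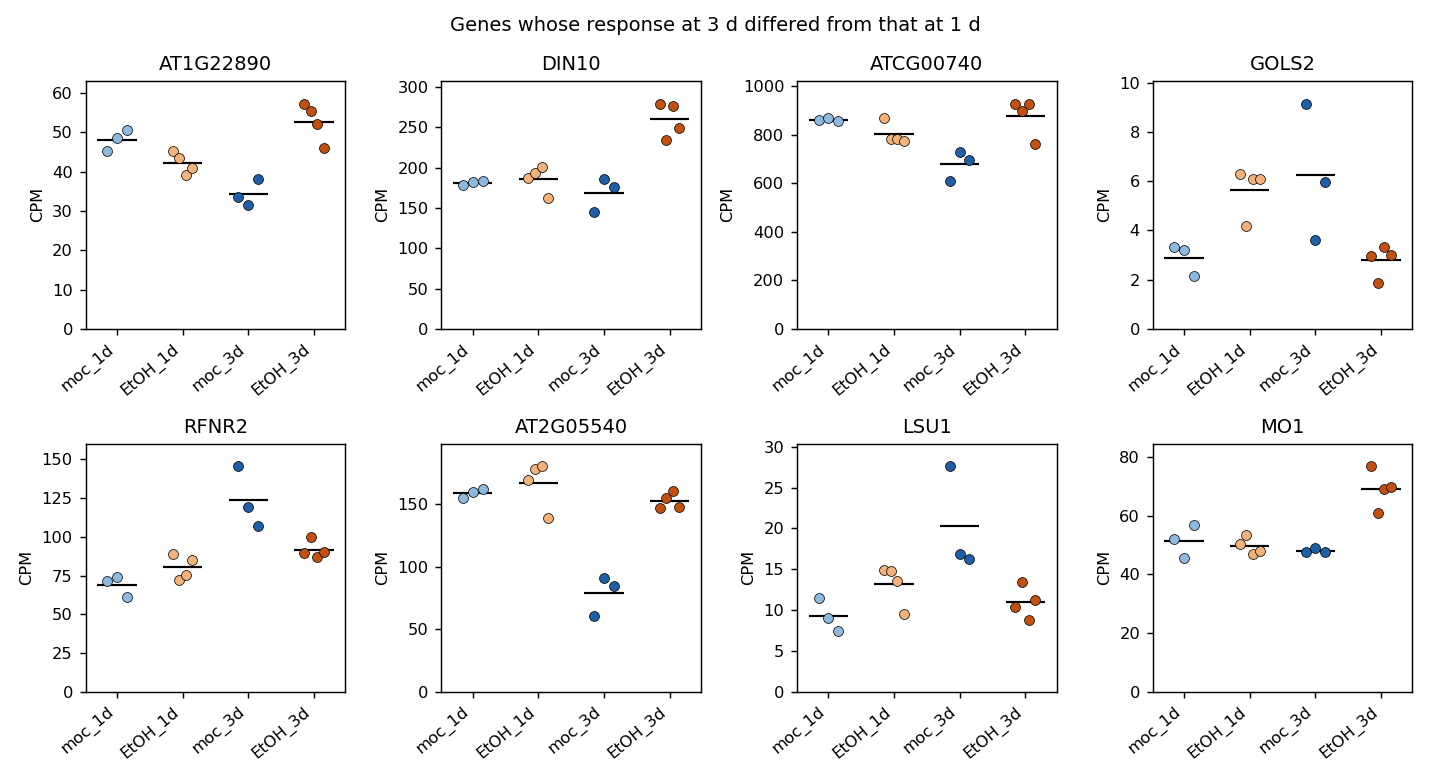
CPM of the 8 genes in each of the 14 libraries (points), with 1 panel per gene, its own linear axis in CPM, and the mean of each of the 4 groups as a bar. In DIN10 and MO1 the EtOH_3d libraries lie above all others, while in RFNR2, AT2G05540, LSU1 and ATCG00740 the moc_3d libraries lie apart.

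To say which group departs, the 4 fitted group levels of each gene were compared. A group was taken to stand alone where its distance to the nearest of the other 3 levels was larger than the range of those 3. By this description, moc_3d stood alone in 4 of the 8 genes and EtOH_3d in 2, and no group stood alone in the remaining 2. Neither 1 d group stood alone in any of the 8. Over all 18419 tested genes the same rule gave moc_3d in 17.1%, EtOH_3d in 15%, moc_1d in 11.2% and EtOH_1d in 9.29%, with no single group in 47.5%. Among the 1025 genes with an unadjusted p under 0.05 the shares were 22.6% for moc_3d, 17.3% for EtOH_3d, 7.12% for moc_1d and 3.41% for EtOH_1d.

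Of the 8 genes, 7 also passed the test between EtOH_3d and moc_3d, where 0.554% of all tested genes passed (0.44% higher and 0.114% lower with ethanol). Between moc_3d and moc_1d 5 of the 8 passed, against 0.842% of all tested genes (0.527% higher and 0.315% lower at 3 d). Between EtOH_3d and EtOH_1d 3 of the 8 passed, against 1% of all tested genes (0.635% higher and 0.369% lower at 3 d). Between EtOH_1d and moc_1d 0 of the 8 passed in edgeR, and 0% of all tested genes did. There 795 genes had an unadjusted p under 0.05, and DESeq2 called 0. These comparisons share libraries with the interaction and are not independent of it. The responses at 1 d and at 3 d had opposite signs in 6 of the 8. Choosing genes by the difference between these responses favours opposite signs, and the share over all tested genes was not counted.

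The 250 bases before the transcript start of DIN10, LSU1 and GOLS2 are shown because each gene stands for one of the patterns below: EtOH_3d apart, moc_3d apart, and no single group apart. They were read from the RefSeq assembly TAIR10.1, at chr5:6833314-6833563 on the plus strand for DIN10, chr3:18375941-18376190 on the minus strand for LSU1 and chr1:21207287-21207536 on the plus strand for GOLS2. Each is written 5′ to 3′ in the direction of transcription, and capitals mark matches on either strand to the motifs searched.
DIN10: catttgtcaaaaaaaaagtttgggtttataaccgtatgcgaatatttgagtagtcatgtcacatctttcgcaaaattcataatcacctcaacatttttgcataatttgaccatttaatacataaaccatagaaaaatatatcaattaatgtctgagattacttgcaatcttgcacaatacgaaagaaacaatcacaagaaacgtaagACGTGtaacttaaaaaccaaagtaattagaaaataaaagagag
LSU1: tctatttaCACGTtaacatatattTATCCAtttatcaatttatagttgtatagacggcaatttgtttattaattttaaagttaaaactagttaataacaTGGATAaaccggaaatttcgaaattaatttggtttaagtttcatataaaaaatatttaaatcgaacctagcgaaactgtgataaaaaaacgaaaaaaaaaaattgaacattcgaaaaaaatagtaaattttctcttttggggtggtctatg
GOLS2: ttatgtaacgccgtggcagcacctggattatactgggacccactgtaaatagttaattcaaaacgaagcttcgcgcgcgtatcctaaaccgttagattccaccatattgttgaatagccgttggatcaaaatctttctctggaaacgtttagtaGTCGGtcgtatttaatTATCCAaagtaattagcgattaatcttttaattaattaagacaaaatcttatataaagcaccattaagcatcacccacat
The motifs searched were CACGTG (the G-box), ACGTG (the core of the abscisic acid response element, which the G-box contains), CCGAC (the core of the cold and drought element), GAGAC (the sulfur response core), TATCCA (a sugar starvation element) and AATATCT (the evening element core). In the window from 250 bases before to 50 bases after the start, ACGTG was found in 4 of the 7 nuclear genes (AT1G22890, DIN10, AT2G05540 and LSU1) and in 26.9% of 26709 windows of the genome. TATCCA was found in GOLS2, AT2G05540, LSU1 and MO1 and in 16.1% of all windows. CCGAC was found in GOLS2 alone of the 7 and in 15% of all windows. GAGAC was found in AT1G22890 alone of the 7 and in 32.8% of all windows. CACGTG (7.79% of all windows) and AATATCT (11.6%) matched none of the 7. A match describes letters and says nothing about binding.

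In 2 genes, DIN10 and MO1, the seedlings with 3 d of ethanol stood alone. DIN10 (AT5G20250, TAIR10.1 chr5:6833564-6836862, plus strand) was at 178, 182 and 183 CPM in moc_1d, at 188, 193, 200 and 163 in EtOH_1d, at 145, 186 and 175 in moc_3d, and at 279, 234, 276 and 250 in EtOH_3d. The EtOH_3d libraries did not overlap with any other group, and the other 3 groups overlapped with each other. The response was 0.04 ± 0.07 at 1 d and 0.62 ± 0.08 at 3 d (log2 ± SE), and the interaction was 0.58 ± 0.11 (adjusted p = 0.0129, edgeR). DIN10 also rose between EtOH_1d and EtOH_3d, by 0.49 (adjusted p = 1.54e-05), while moc_3d minus moc_1d was -0.10. It overlaps AT5G20260 on the opposite strand, and since the notes do not state whether counting used strand, reads of the pair cannot be told apart.

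MO1 (AT4G15760, chr4:8972649-8974769, minus strand) was at 52.0, 45.5 and 56.7 CPM in moc_1d and at 50.4, 53.4, 47.0 and 48.0 in EtOH_1d. In moc_3d it was at 47.7, 49.0 and 47.5, and in EtOH_3d at 76.8, 61.0, 69.2 and 69.8. All EtOH_3d libraries were above all others. The interaction was 0.58 ± 0.12, with an adjusted p of 0.049996 in edgeR, the last value inside the threshold. The first values outside it, both 0.0542, belonged to BT1 and AT1G61740.

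In the 4 genes RFNR2, LSU1, AT2G05540 and ATCG00740 it was the 3 d controls that stood alone. RFNR2 (AT1G30510, chr1:10806930-10809188, minus strand) was at 71.4, 74.2 and 61.2 CPM in moc_1d and at 88.8, 72.2, 75.2 and 85.2 in EtOH_1d. It was at 146, 119 and 107 in moc_3d and at 89.6, 100, 86.7 and 90.0 in EtOH_3d. The 3 moc_3d libraries were above the other 11, and moc_1d overlapped with EtOH_1d. The response was 0.22 at 1 d and -0.43 at 3 d, and the interaction was -0.66 ± 0.13 (adjusted p = 0.0201, edgeR).

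LSU1 (AT3G49580, chr3:18374908-18375940, minus strand) is a small protein gene known to be induced by sulfate shortage. It was at 11.5, 8.97 and 7.38 CPM in moc_1d and at 14.9, 14.8, 13.6 and 9.46 in EtOH_1d, at 27.6, 16.9 and 16.3 in moc_3d, and at 10.4, 13.4, 8.82 and 11.2 in EtOH_3d. The moc_3d libraries were again above the other 11, while the other 3 groups overlapped. LSU1 rose from moc_1d to moc_3d by 1.07 (adjusted p = 0.00149) and was lower in EtOH_3d than in moc_3d by -0.89 on the log2 scale (adjusted p = 0.0139). Its interaction was -1.36 ± 0.27 (adjusted p = 0.0287, all by edgeR).

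AT2G05540 (chr2:2033154-2034283, plus strand) codes for a glycine-rich protein and departed in the opposite direction. It was at 155, 160 and 162 CPM in moc_1d, at 169, 178, 180 and 139 in EtOH_1d, at 60.4, 90.5 and 84.5 in moc_3d, and at 147, 155, 161 and 147 in EtOH_3d. The moc_3d libraries lay below all others, and the remaining 3 groups overlapped. Its response was 0.07 at 1 d and 0.95 at 3 d, and the interaction was 0.88 ± 0.14 (adjusted p = 0.0201, edgeR).

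ATCG00740 is counted under a chloroplast locus, for which neither the files nor the reference table give a name. It was at 859, 869 and 857 CPM in moc_1d and at 870, 783, 782 and 776 in EtOH_1d. The moc_3d libraries were at 609, 730 and 696, below all others, and the EtOH_3d libraries were at 929, 899, 925 and 761. The interaction was 0.47 ± 0.09 (adjusted p = 0.0129, edgeR). The share of all counts on chloroplast loci was also lowest in moc_3d. It was 1.08 to 1.5% in moc_3d, against 1.59 to 1.83% in moc_1d, 1.53 to 2.28% in EtOH_1d and 1.53 to 1.92% in EtOH_3d. Its part in the value of ATCG00740 was not tested. Over the 86 chloroplast-encoded loci tested, the median response was 0.28 at 1 d and 0.39 at 3 d. The median was -0.32 for moc_3d minus moc_1d and -0.25 for EtOH_3d minus EtOH_1d. ATCG00740 had -0.10, 0.37, -0.34 and 0.13 in the same order. It was near the medians of the loci in the response at 3 d and in moc_3d minus moc_1d. It had the opposite sign to the medians in the response at 1 d and in EtOH_3d minus EtOH_1d. Whether it differed from the loci as a set was not tested. Of 86 chloroplast-encoded loci tested, 52 were positive and 34 negative with a median interaction of 0.06, and ATCG00740 was the only one that passed in edgeR. These counts depended on single libraries. Without moc_3d replicate 4, 72 were positive with a median of 0.25, without moc_3d replicate 1, 41 with -0.0079, and without EtOH_3d replicate 2, 40 with -0.013. ATCG00420, with the next smallest p, had an interaction of 0.53 ± 0.25.

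In all 4 of these genes the moc_3d library farthest from the other groups was replicate 1. Without it the interactions were smaller in size, at -0.53 in RFNR2, -1.10 in LSU1, 0.74 in AT2G05540 and 0.41 in ATCG00740. AT2G05540 still passed, and RFNR2, LSU1 and ATCG00740, with an adjusted p of 0.1545 each, did not. Without that library RFNR2 and LSU1 also had no single departing group, and the number of genes with moc_3d alone was 2. That number was 2 to 5 over the 14 fits that left out 1 library each. RFNR2 also had no single departing group without moc_1d replicate 3 or EtOH_3d replicate 3. The same held for LSU1 without moc_1d replicate 2 or EtOH_1d replicate 4. These 4 genes also depended on the doubled column: kept as moc_1d replicate 1, it gave interactions of -0.41 in RFNR2, -1.02 in LSU1, 0.73 in AT2G05540 and 0.40 in ATCG00740, and 0 of the 4 passed in edgeR. Kept as moc_3d replicate 3, it gave -0.66, -1.38, 0.82 and 0.47 in the same order, and RFNR2, LSU1 and ATCG00740 passed, while AT2G05540 had an adjusted p of 0.0564. DIN10 and MO1 depended on it as well. DIN10 had 0.52 with the copy as moc_3d replicate 3 (adjusted p = 0.0722, edgeR). MO1 had 0.55 with it as moc_1d replicate 1 (adjusted p = 0.0832, edgeR). Each passed under the other label, and GOLS2 and AT1G22890 passed under either.

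**Figure D2:**
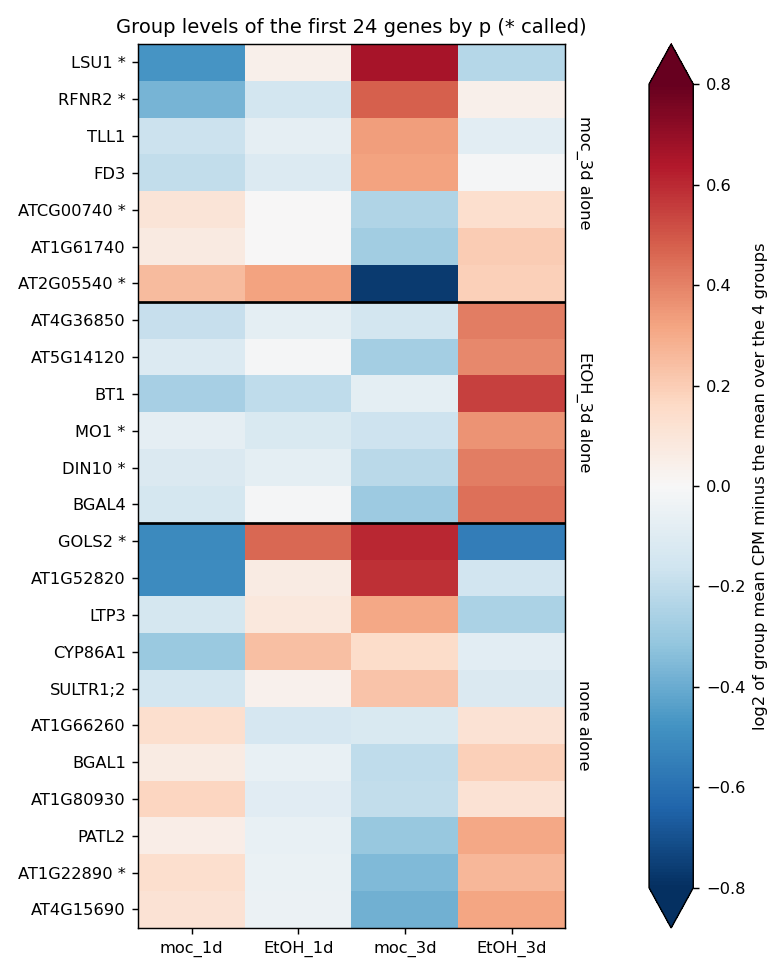
Level of the first 24 genes by p (lines) in the 4 groups (columns), as the log2 of the group's mean CPM minus the gene's mean over the 4 groups, in blocks by departing group and with an asterisk on the 8 genes that passed. Beyond the 8, genes were taken only with a mean of at least 5 CPM. The upper block holds 7 genes with moc_3d apart, the middle block 6 with EtOH_3d apart and the lower block 11 with no single group apart.

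In GOLS2 and AT1G22890 no single group stood alone. For GOLS2 this held in all 14 fits without 1 library each. For AT1G22890 it held in 9 of 14, and in the others moc_3d stood alone. With all libraries, moc_3d of AT1G22890 lay 0.298 from the nearest level, against a range of 0.313 for the other groups. GOLS2 (AT1G56600, chr1:21207537-21209635, plus strand) codes for galactinol synthase, which makes the galactosyl donor for raffinose, and is known to respond to drought and salt. It was at 3.33, 3.20 and 2.13 CPM in moc_1d, at 6.27, 4.16, 6.07 and 6.09 in EtOH_1d, at 9.15, 3.6 and 5.95 in moc_3d, and at 2.98, 1.88, 3.31 and 3.01 in EtOH_3d. The pattern was crossed: EtOH_1d lay above moc_1d and EtOH_3d lay below moc_3d, with no overlap within either pair. The levels rest on few reads, from 7 to 101 per library.

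The response of GOLS2 was 0.95 at 1 d (adjusted p = 0.533) and -1.08 at 3 d (adjusted p = 0.0662), so neither passed by itself, and the interaction was -2.04 ± 0.40 (adjusted p = 0.0161, edgeR). Its 95% interval ran from -2.83 to -1.24. Of its 3 paralogs tested, GOLS1 had an interaction of -0.04 ± 0.18, GOLS3 of -0.70 ± 0.49 and GOLS4 of -0.45 ± 0.33. All 3 were negative and none passed in edgeR or DESeq2.

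AT1G22890 (chr1:8102728-8103588, plus strand) had the smallest p of all genes. It was at 45.1, 48.6 and 50.5 CPM in moc_1d and at 45.3, 43.4, 39.0 and 41.0 in EtOH_1d. It was at 33.5, 31.4 and 38 in moc_3d and at 57.3, 55.3, 52.0 and 45.9 in EtOH_3d. The moc_3d libraries were the lowest of all 14, and EtOH_3d lay above EtOH_1d without overlap. The interaction was 0.79 ± 0.13 (adjusted p = 0.00441, edgeR), from a response of -0.18 at 1 d and 0.61 at 3 d. It fell by 0.48 from moc_1d to moc_3d (adjusted p = 0.00561), whereas the difference of 0.31 between EtOH_3d and EtOH_1d had an adjusted p of 0.0633.

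**Figure D3:**
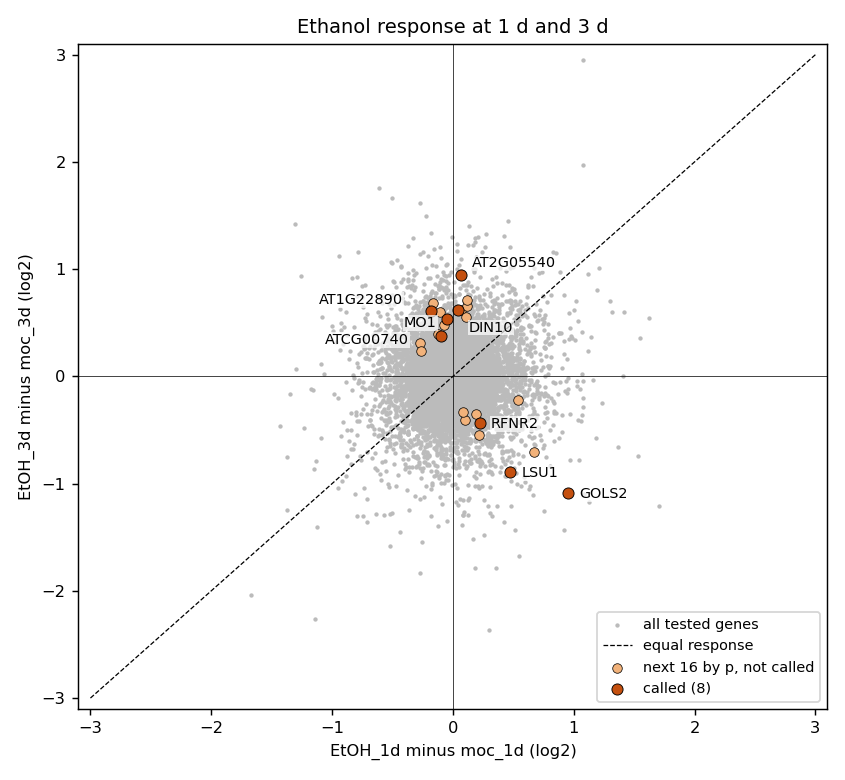
Response to ethanol at 3 d (vertical axis, log2) against the response at 1 d (horizontal axis, log2) for all tested genes (grey), the 8 genes that passed (dark) and the next 16 by p (light), with a dashed line where both are equal. Beyond the 8, genes were taken only with a mean of at least 5 CPM. Of the first 24 genes, 18 have responses of opposite sign, which choosing genes by the interaction favours. The vertical distance to the line is the interaction, -2.04 for GOLS2 and 0.88 for AT2G05540.

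The next 16 genes in order of p with a mean of at least 5 CPM did not pass in edgeR, and are given as values. DESeq2 called 1 of them, FD3. AT1G18100, which the CPM limit left out, was called by DESeq2 with an interaction of -2.95. Its adjusted p was 0.0456 in DESeq2 and 0.0568 in edgeR. Among the first 24, counting the 8 above, 15 interactions were positive and 9 negative, and moc_3d stood alone in 7, EtOH_3d in 6 and no group in 11. EtOH_3d stood alone, and high, in 4 of the 16: BT1, a BTB and TAZ domain protein gene, the major facilitator gene AT5G14120, the beta-galactosidase gene BGAL4 and the PQ-loop protein gene AT4G36850. BT1 ranged from 115 to 138 CPM in EtOH_3d and from 62.4 to 88.3 CPM over the other 10 libraries, with an interaction of 0.55 (adjusted p = 0.0542, edgeR). For AT5G14120, BGAL4 and AT4G36850 the interactions were 0.54, 0.60 and 0.45. AT5G14120 and BGAL4 overlap genes on the opposite strand.

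The 3 d controls stood alone in 3 of the 16. FD3, a root-type ferredoxin and a carrier of the kind that root-type reductases load with electrons, was at 152, 151 and 138 CPM in moc_1d and at 154, 146, 158 and 166 in EtOH_1d. It was at 216, 222 and 193 in moc_3d and at 169, 161, 161 and 177 in EtOH_3d. As with RFNR2, the moc_3d libraries were above the other 11, and the interaction was -0.42 ± 0.09, with an adjusted p of 0.0568 in edgeR and 0.0456 in DESeq2. TLL1, a lipase-like gene, was also high in moc_3d alone (interaction -0.51), and AT1G61740, of the TauE/SafE sulfite exporter family, was low in moc_3d alone (0.56).

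No group stood alone in the other 9. PATL2, a patellin of membrane traffic, had an interaction of 0.71, AT1G80930, an MIF4G and MA3 domain gene, of 0.58 and the beta-galactosidase gene BGAL1 of 0.52. The value was 0.51 for the RNA-binding protein gene AT1G66260 and 0.85 for AT4G15690, of the thioredoxin superfamily. CYP86A1, a fatty acid hydroxylase of suberin synthesis in roots, ranged from 17.4 to 20.3 CPM in moc_1d and from 23.9 to 29.5 CPM in EtOH_1d. At 3 d its range was 22.1 to 30.2 CPM in the controls and 19.9 to 23.9 CPM under ethanol. Its EtOH_1d libraries lay above moc_1d without overlap, and the interaction was -0.76. The lipid transfer protein gene LTP3 had -0.76, the root sulfate transporter gene SULTR1;2 had -0.55 and the oxygenase gene AT1G52820 had -1.38. AT1G66260 and AT1G52820 overlap genes on the opposite strand.

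The sulfur limitation list held 18 tested genes, of which LSU1 alone passed. The interaction was negative in 15 and positive in 3, with a median of -0.29, beside -0.0036 and 49.3% positive over all tested genes. LSU3 (chr3:18372404-18373147, minus strand) was at 6.48, 6.70 and 5.74 CPM in moc_1d, 12.0, 8.50, 8.09 and 6.74 in EtOH_1d, 24.3, 12.9 and 13.7 in moc_3d, and 13.2, 11.8, 11.5 and 12.6 in EtOH_3d. Its highest library was moc_3d replicate 1, both 3 d groups were mostly above both 1 d groups, and the interaction was -0.95 ± 0.28. The value was -0.59 ± 0.21 for LSU2, -0.05 ± 0.66 for LSU4, -0.60 for SDI2, -0.39 for APR1 and -0.32 for APR2, the last 2 being reductases of sulfate assimilation. For GGCT2;1, an enzyme of glutathione breakdown, it was -0.74. The 3 positive members were SULTR1;1 at 1.27 ± 0.80, BGLU28 at 0.28 ± 0.61 and EIL3 at 0.19 ± 0.27. Levels of SULTR1;1 and BGLU28 were low, with group means from 0.62 to 1.37 CPM and from 1.26 to 2.29 CPM. From moc_1d to moc_3d SULTR1;1 changed by -0.04 and BGLU28 by -0.17. Of the 18 genes, 16 were higher in moc_3d than in moc_1d, beside 49.6% of all tested genes, and 10 of them passed that test, beside 0.527%. Between EtOH_3d and moc_3d 1 passed, LSU1, which was lower, as were 0.114% of all tested genes. Over the fits without 1 library each, the median stayed between -0.36 and -0.23, with 13 to 15 genes negative. The doubled column moved it further. Kept as moc_1d replicate 1, it gave a median of -0.195 with 12 negative, and as moc_3d replicate 3, -0.28 with 15 negative. With all 16 columns as labelled, 12 of 17 tested were negative, with a median of -0.22.

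Nitrate reduction and root plastid reductant genes were negative in 16 of 20, with a median of -0.16 and RFNR2 the only one past the threshold in edgeR. DESeq2 called 2, RFNR2 and FD3. Within the pair of root-type reductases, RFNR1 had -0.18 ± 0.15 and RFNR2 -0.66. PGD3, a plastid enzyme of the oxidative pentose phosphate pathway, had -0.47. The nitrate reductase genes NIA1 and NIA2 were among the 4 positive members, at 0.28 and 0.32. The median lay between -0.22 and -0.08 without 1 library each, and was nearest to 0 without moc_3d replicate 1. With the doubled column kept as moc_1d replicate 1 it was -0.11, and as moc_3d replicate 3, -0.17.

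Dark and sugar starvation genes leaned the other way, with 17 of 22 positive, a median of 0.21 and DIN10 the only one that passed in edgeR, while DESeq2 called 2, DIN10 and DIN1. DIN1, a senescence-associated gene, had 0.70 ± 0.19, with an adjusted p of 0.621 in edgeR and 0.0175 in DESeq2. The DIN genes did not share a direction. DIN4 had 0.29 ± 0.18 and DIN11 0.64 ± 0.98, while DIN9 had -1.42 ± 0.50, DIN2 -0.54 ± 0.36 and DIN3 -0.08 ± 0.19. Group means of DIN9 were low, from 1.69 to 3.97 CPM. The value was 0.51 ± 0.13 for BXL1, a beta-xylosidase (adjusted p = 0.263, edgeR). BXL1 was at 168, 182, 187 and 176 CPM in EtOH_3d, above all other libraries, which ranged from 90.4 in moc_3d replicate 1 to 153. Of the 22 genes, 9 rose between moc_3d and EtOH_3d, where 0.44% of all tested genes did, and 7 between EtOH_1d and EtOH_3d, against 0.635%. From moc_1d to moc_3d 4 rose, against 0.527%. The median response of the 22 to ethanol was 0.40 at 3 d. At 1 d it was 0.16, also above 0, though 0% of all tested genes passed there in edgeR. The median interaction stayed between 0.18 and 0.23 in the fits without 1 library each. With the doubled column kept as moc_1d replicate 1 it was 0.25, and as moc_3d replicate 3, 0.19.

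Of 8 tested genes in the galactinol and raffinose list, DIN10 passed upward and GOLS2 downward, and the median was -0.09, so the list had no common direction. The glycine-rich list had 4 of 5 tested members positive, with a median of 0.42. Beside AT2G05540 these included GRP3S with 0.75 ± 0.23 and GRP-3 with 0.42 ± 0.15, while GRP9 was at -0.07. None of the 5 was higher in moc_3d than in moc_1d. Of 8 genes for plastid sigma factors and the phage-type polymerases RPOTp and RPOTmp, 4 were positive and 4 negative. SIG5 was at -0.56 ± 0.20 and SIG2 at 0.19 ± 0.12, and none passed. That list holds no chloroplast-encoded locus.

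**Figure D4:**
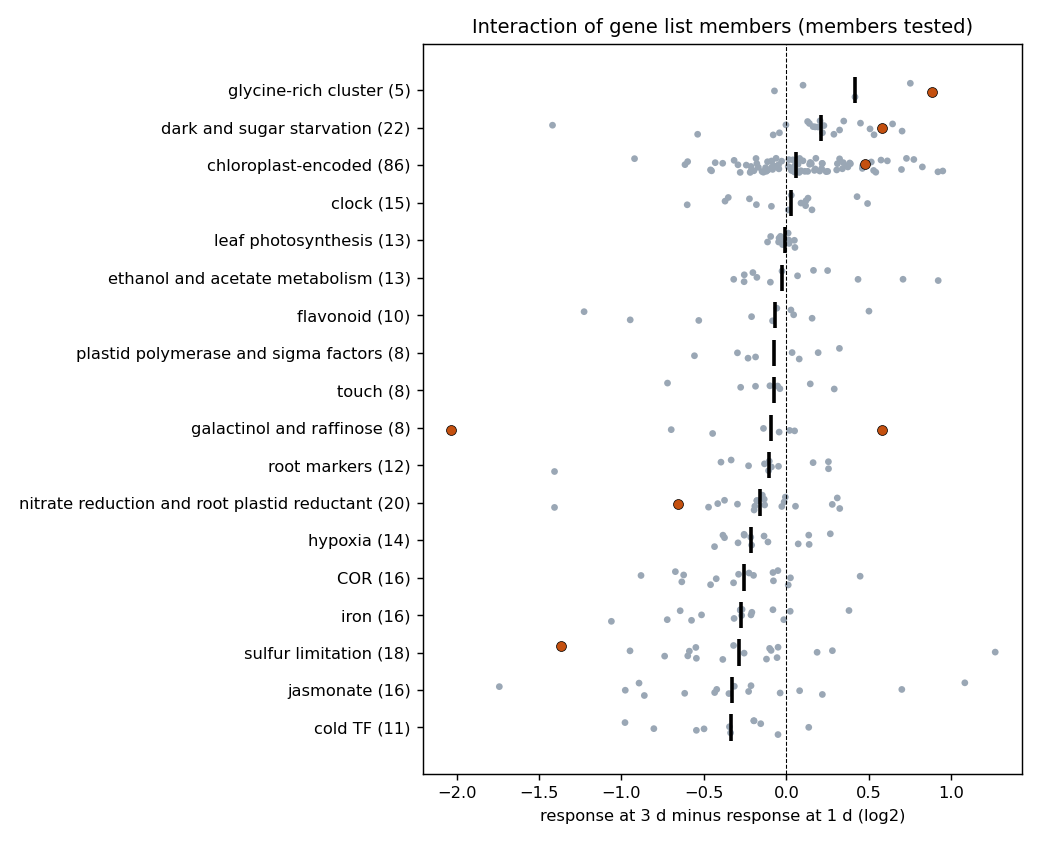
Interaction (log2, horizontal axis) of every tested member of the 18 gene lists (points, with random vertical scatter), with each list's median as a bar, genes that passed as large dark points and the median of all tested genes as a dashed line. Sulfur limitation genes lie mostly below 0 (15 of 18) and dark and sugar starvation genes mostly above it (17 of 22).

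The alcohol dehydrogenase gene ADH1, the first step of ethanol oxidation, had an interaction of -0.26 ± 0.52 (adjusted p = 0.991, edgeR). Of 13 genes of ethanol and acetate metabolism 6 were positive and 7 negative, with a median of -0.03, and none passed. ALDH2C4, an aldehyde dehydrogenase, had 0.25 ± 0.11 and PCK1, the phosphoenolpyruvate carboxykinase, -0.18 ± 0.10. Of 14 hypoxia genes 10 were negative, with a median of -0.21, or -0.038 without moc_3d replicate 1 and -0.35 without EtOH_3d replicate 4. None of them passed, among them HRE1 at -0.38 ± 0.33 and HUP32 at 0.27 ± 0.23.

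Cold-regulated genes were negative in 13 of 16, with a median of -0.26, and none passed. RCI2A was at 815, 779 and 920 CPM in moc_1d, 948, 1010, 1089 and 1000 in EtOH_1d, 859, 786 and 844 in moc_3d, and 853, 813, 811 and 949 in EtOH_3d. Its EtOH_1d libraries lay above moc_1d without overlap, and the 3 d groups overlapped. The interaction was -0.23 ± 0.09, and for XERO2, a dehydrin, it was -0.32 ± 0.11. Of 11 cold transcription factor genes 10 were negative (median -0.34), with CBF3 at -0.98 ± 0.46 and DEAR1 at -0.55 ± 0.23. Without moc_3d replicate 1, 5 of these 11 were negative and the median was 0.10.

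Several other lists rested on that library. Iron genes were negative in 14 of 16 (median -0.27), with NAS4 at -0.57 ± 0.28 and PYE at 0.38 ± 0.23. Without moc_3d replicate 1 they were negative in 5, with a median of 0.15. Jasmonate genes were negative in 12 of 16 (median -0.33, or -0.09 without it), with CORI3 at -0.98 ± 0.23 and JAZ10 at 1.08 ± 0.40. CORI3 was at 44.1, 24.6 and 30.4 CPM in moc_3d and between 17.3 and 28.1 in the other 11 libraries. Touch genes had a median of -0.08 with all libraries and 0.16 without it, with TCH2 at -0.19 ± 0.29 and WRKY40 at -0.72 ± 0.61.

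Root markers were negative in 9 of 12, with a median of -0.11 (AMT1;2 -0.40 ± 0.17, PHT1;1 -0.23 ± 0.11), and in 8 or 9 with 1 library left out. Flavonoid genes were negative in 6 of 10, with a median of -0.07 (F3H -0.53 ± 0.19, GSTF12 -1.23 ± 0.49). Without moc_1d replicate 2 the flavonoid count was 9 and the median -0.195, without moc_3d replicate 2 they were 8 and -0.195, and without EtOH_3d replicate 3 they were 3 and 0.026. Clock genes were negative in 6 of 15, with a median of 0.03 (RVE1 -0.60 ± 0.31, PRR5 -0.22 ± 0.13), which lay between -0.048 and 0.099 with 1 library left out. Leaf photosynthesis genes were negative in 7 of 13, with a median of -0.01 (RCA -0.11 ± 0.08, LHCA1 0.05 ± 0.07), which lay between -0.031 and 0.014. No gene of these 4 lists passed in edgeR.

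In edgeR 0 genes passed in the list for plastid sigma factors and phage-type polymerases, or in those for ethanol and acetate, hypoxia and clock. The same held for cold-regulated genes, cold transcription factors, iron, jasmonate, touch, flavonoids and root or leaf markers. DESeq2 called 0 there too. An unadjusted p under 0.05 was reached by 1 gene of the sigma factor and phage-type polymerase list, 1 of ethanol and acetate and 4 cold-regulated genes. It was also reached by 2 cold transcription factors, 1 iron gene, 2 jasmonate genes, 2 flavonoid genes and 2 root markers. In the hypoxia, touch, clock and leaf lists it was reached by 0.

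The change with duration was also read on each side of the interaction. From moc_1d to moc_3d 97 genes rose and 58 fell, and from EtOH_1d to EtOH_3d 117 rose and 68 fell. These comparisons share no library. Both called 43 genes, all 43 in the same direction, which is 27.7% of the control list and 23.2% of the ethanol list. Across all tested genes the changes with duration had a Pearson r of 0.205 and a Spearman rho of 0.175, given as a description, since genes are not independent replicates.

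The first 24 genes were chosen by p from these same libraries, which favours an unchanged direction. Their direction was the same with each of the 14 libraries left out in turn, but the calls were not. AT1G22890 passed in all 14 such fits, DIN10 and ATCG00740 in 11, GOLS2 in 10, RFNR2 in 8, AT2G05540 in 6, LSU1 in 5 and MO1 in 4. DIN10 and ATCG00740 missed the threshold without moc_1d replicate 4, moc_3d replicate 1 or EtOH_3d replicate 3, and GOLS2 without any of these or EtOH_1d replicate 1. Without moc_3d replicate 1 the interaction was 0.49 in DIN10 (adjusted p = 0.101) and -1.69 in GOLS2 (adjusted p = 0.251, edgeR). The highest adjusted p was 0.118 for AT2G05540, without EtOH_3d replicate 3, and 0.265 for MO1, without moc_1d replicate 4. The number of genes called ranged from 1, without moc_1d replicate 4 or EtOH_3d replicate 3, to 23, without moc_3d replicate 2.

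**Figure D5:**
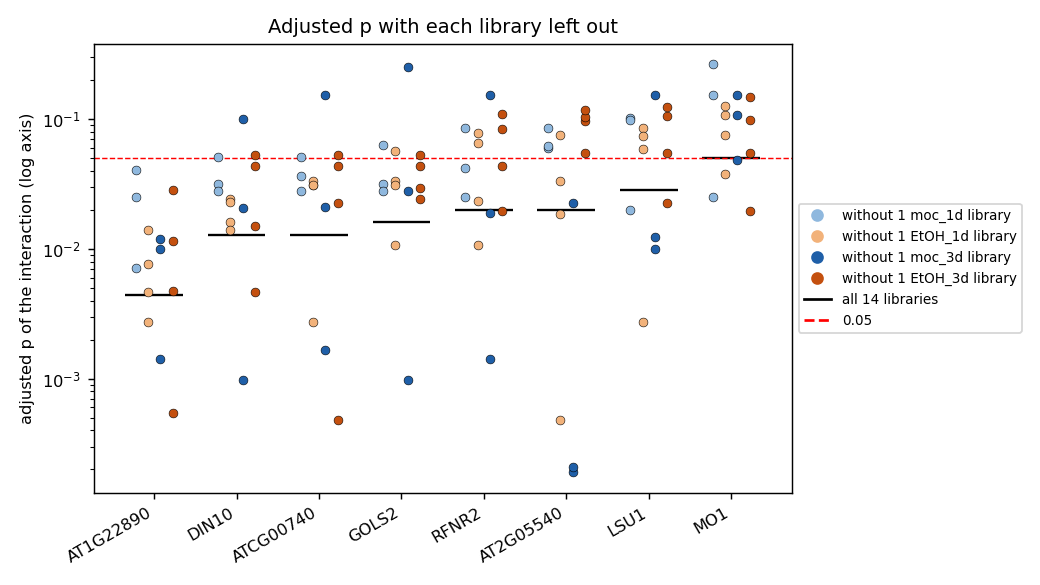
Adjusted p of the interaction (log axis) for the 8 genes in the 14 fits without 1 library each (points, coloured by the group of the missing library) and with all 14 libraries (bars), with the threshold of 0.05 dashed. AT1G22890 has all its points under the line, and MO1 has 4 of 14.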

How the data were processed

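Whole seedlings were read by Lasy-Seq, and the authors deposited raw read counts per gene. Per the submitters' processing notes, bcl2fastq, Trimmomatic, HISAT2 (build TAIR10), featureCounts and DESeq2 were used, and versions are not given in the sources used here. From the deposited counts, genes were filtered with filterByExpr and fitted in R 4.3.3 with edgeR 4.0.16 (TMM scaling, robust quasi-likelihood fit, 4 group means over 14 libraries, a two-sided test, Benjamini-Hochberg adjustment over 18419 genes). CPM use TMM-scaled library sizes. The fit was tested on simulated data. Errors are SE. The biological coefficient of variation was 0.0911. Alternatives used DESeq2 1.42.0, limma 3.58.1, other filters and other sets of libraries.

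Named genes were those passing the threshold, the next by p with a mean of at least 5 CPM up to 24, 2 of each list by p, and ADH1, GOLS1 to GOLS3, LSU1 to LSU3, RFNR1 and RFNR2. Other list members named, such as GOLS4, LSU4 and DIN1, were chosen after their values were seen. Genes, lists and comparisons were chosen with earlier results of these data known. Of 325 list memberships 311 were tested. Upstream sequences came from the RefSeq genome TAIR10.1. With BLAST 2.17.0, the last 500 bases of 3 of 55 named genes (HRE1, WRKY40 and TCH2) resembled another gene by at least 95%, so their counts are uncertain.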

Additional observations from a re-analysis of the deposited data

Results flagged for a closer look

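The response to ethanol differed between 3 d and 1 d by edgeR's test in the 8 genes of the report, by 0.792 (AT1G22890), 0.582 (DIN10), 0.474 (ATCG00740), -2.04 (GOLS2), -0.657 (RFNR2), 0.883 (AT2G05540), -1.36 (LSU1) and 0.576 (MO1) on the log2 scale. In 5 of 114 groups of 4 libraries examined, 1 library stood apart by Dixon's criterion, which chance gives in about 1 of 20 groups. Only the ethanol groups hold 4 libraries. The control groups, with 3 each, were not examined, so moc_3d replicate 1 could not be flagged. EtOH_1d replicate 1 was high in ATCG00740, at 870 CPM. EtOH_1d replicate 2 was low in GOLS2, at 4.16 CPM, and EtOH_1d replicate 4 was low in GRP3S, at 1038 CPM. EtOH_3d replicate 3 was low in RCA, at 1895 CPM, and in RFNR1, at 30.2 CPM.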

How the results depend on the processing

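The 8 calls became 2 with limma-voom or without robust moderation (AT1G22890 and AT2G05540 each time), 47 without a filter on low counts, and 1 to 23 with 1 library left out. Genes with moc_3d alone numbered 2 to 5 in those fits. DESeq2 called 11 genes, all 8 with DIN1, FD3 and AT1G18100, and a mean of at least 5 CPM left 6. The doubled library decided much. With all 16 columns as labelled 0 genes passed in edgeR (788 had an unadjusted p under 0.05). Keeping the copy as moc_1d replicate 1 gave 4 calls, 3 of them shared, and as moc_3d replicate 3 it gave 11, with 6 shared. As moc_1d replicate 1, the values were -0.41 for RFNR2 (adjusted p = 0.963), -1.02 for LSU1 (0.920), 0.73 for AT2G05540 (0.886) and 0.40 for ATCG00740 (0.505). The cause was not tested. The first 24 genes kept their direction under every alternative that gave a value, which choosing them by p from the same libraries favours. TCH2 turned from -0.187 to 0.012 with 16 columns, and lay between -0.32 and 0.0455 with 1 library left out, above 0 without moc_3d replicate 1. GOLS1, at -0.0435, lay between -0.176 and 0.0496 with 1 library left out, above 0 without moc_1d replicate 3, moc_3d replicate 1 or EtOH_3d replicate 1.

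With replicate number as a block there were 10 calls, all 8 among them. Same-numbered libraries correlated at -0.079 to 0.059 in their deviations, none over 0.1, and 5 of 14 correlated best with their own number, so the numbers were not taken as a pairing.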
